A study of Mus musculus with 6 samples.

Results

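Trophoblast transcription factors are the regulators that set aside and mature the outer lineage of the early embryo, which forms the placenta. Here 9 of their genes were followed, Tead4, Cdx2, Gata3, Elf5, Tfap2c, Gata2, Ascl2, Hand1 and Esx1, through every probe set annotated to them. The genes were chosen by name, with earlier results of these data known. They have 18 of the 45037 probe sets tested on the arrays, and they are 9 of the 18193 genes with a probe set of their own. The cells were E14Tg2a, a line of mouse embryonic stem (ES) cells that stands for 1 genotype. All groups grew in serum-free N2B27 medium that held 20 ng/ml BMP4 and 1000 U/ml of the cytokine LIF. Control cells had no further addition, activin cells received activin at 10 ng/ml for 2 h, and inhibitor cells received SB431542 at 5 µM for 24 h. Each group had 2 single-colour Affymetrix arrays. No vehicle is stated for the control. Nothing in the labels makes the pair of arrays in a group separate cultures, and every p-value here rests on array spread that could be technical alone.

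In the embryo the trophectoderm arises under Tead4, which works with Yap1 and lies upstream of Cdx2 and Gata3. Elf5, Eomes and Tfap2c then sustain the trophoblast stem cell state, while Gata2, Ascl2, Hand1 and Esx1 act in the layers of the growing placenta. ES cells normally keep this programme low, and BMP signalling, which the medium supplies here, can favour it. SB431542 blocks the kinase of the type I receptors for activin and Nodal, and activin stimulates the same receptors, so the comparisons ask which of these factors respond when that signal is removed or added.

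After SB431542 the factors split. Ascl2, Gata2, Hand1, Esx1, Gata3 and Tfap2c stood above control on every probe set, from 1.63-fold for a Tfap2c probe set to 7.70-fold for an Ascl2 probe set. Tead4 was slightly higher, at 1.33-fold and 1.59-fold. Cdx2 and Elf5 were not higher on any probe set. On 14 of the 18 probe sets both inhibitor arrays lay above both control arrays, against 20.6% of all probe sets. The median log2 difference of the 18 was 0.87, against −0.03 over all probe sets. Because the genes were chosen with earlier results known, these contrasts and the counts below describe the set and are no independent test of it.

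Only 1 of the 18, an Ascl2 probe set, rose past the threshold, an adjusted p of 0.05 by limma at its default settings (0.00222% of all probe sets were called higher and 0.0133% lower). When limma lets the expected variance follow the intensity, with robust estimation, here called the intensity trend, 12 of the 18 rose, in 6 genes, against 3.38% of all probe sets. Leaving out any 1 of the 6 arrays ended the default call, but then 0 of all 45037 probe sets passed, while the difference of that Ascl2 probe set stayed between 2.01 and 2.05. With the intensity trend 11 or 12 were still called, and the probe set that was lost without control replicate 2, SB431542 replicate 1 or SB431542 replicate 2 was that of Gata3. RNA was measured over the whole culture, so a few cells with much of a transcript and many cells with a little cannot be told apart.

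**Figure D1:**
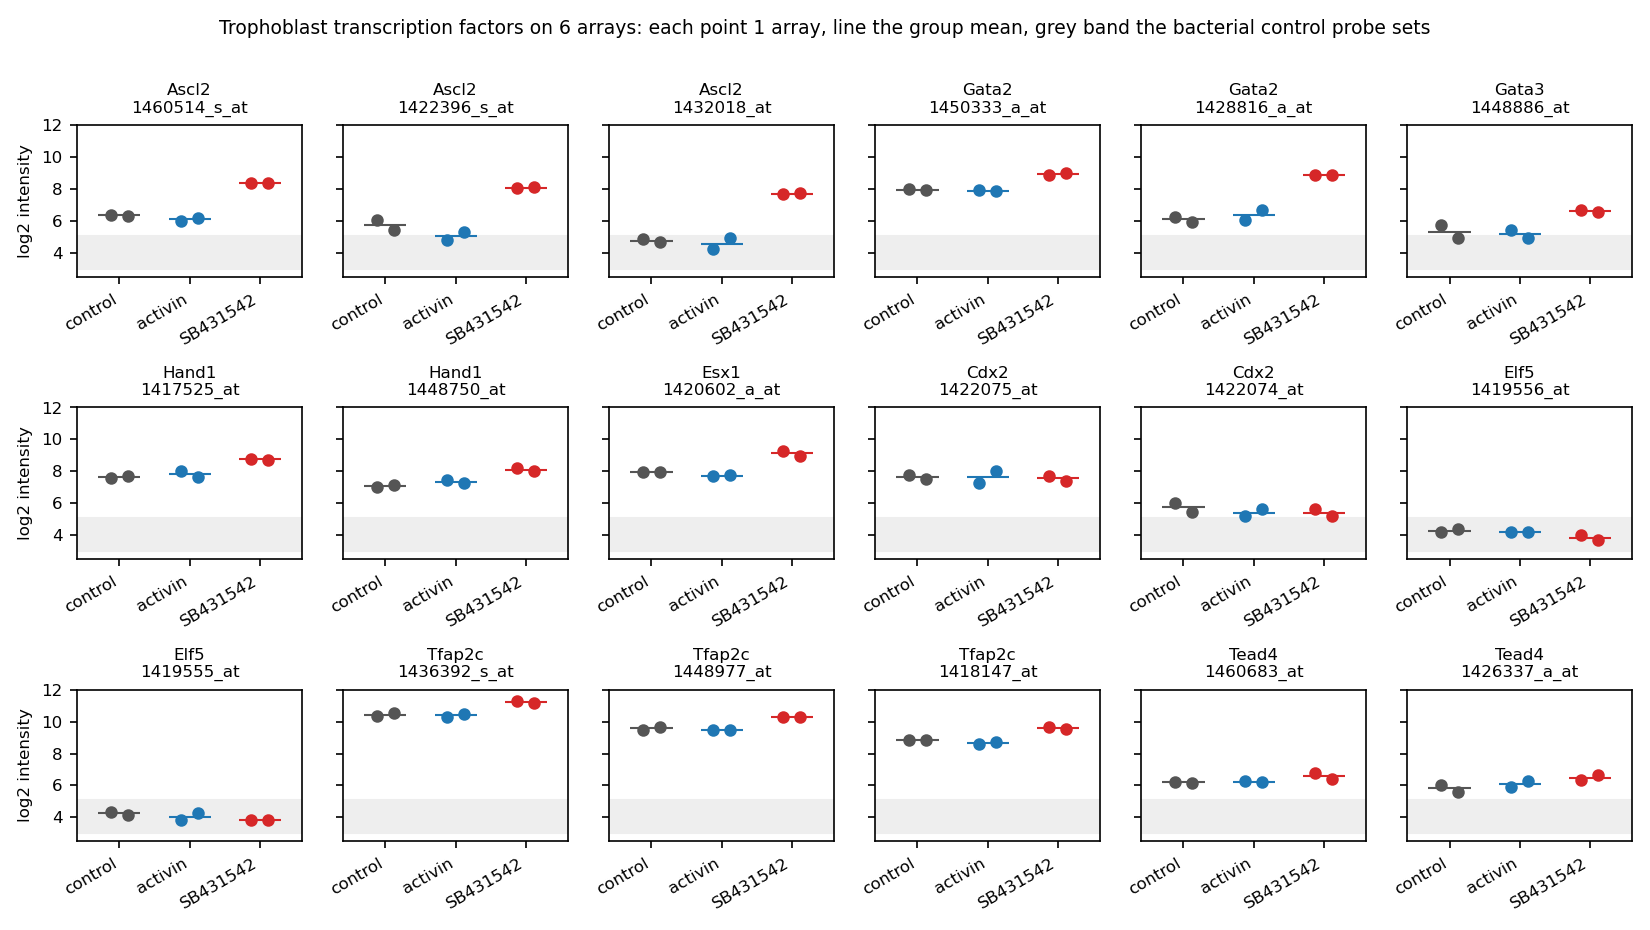
Log2 intensity of the 18 probe sets on each of the 6 arrays, 1 panel per probe set, with 1 point per array, a line at each group mean, and a grey band over the range of 27 bacterial control probe sets. The 2 SB431542 arrays stand above all the others for Ascl2, Gata2, Gata3, Hand1, Esx1 and Tfap2c, and by less for Tead4. Both Elf5 probe sets lie inside the grey band on every array.

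Core pluripotency transcripts stayed bright in every group. Pou5f1 (Oct4), the factor that pluripotent cells cannot do without and that opposes Cdx2 in the embryo, had intensities of 6087 and 5455 in control, 5652 and 5590 after activin, and 4082 and 4499 after SB431542. It was at −0.43 on the log2 scale after the inhibitor (SE 0.13, limma adjusted p = 0.308), and it fell with the intensity trend (adjusted p = 1.51e-04). Of the 5 core pluripotency genes 3 fell by that test, Pou5f1, Utf1 and Nanog, where 2.23% of genes did. Median intensities of the 6 arrays ran from 37 to 49. With no detection call in the table, background was read from 27 control probe sets for bacterial transcripts, whose log2 values ran from 3.00 to 5.09, an intensity of 8 to 34.

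Ascl2 is a basic helix-loop-helix factor, expressed from the maternal allele, that the ectoplacental cone and spongiotrophoblast require. Its probe set 1460514_s_at read 83 and 81 in control, 65 and 73 after activin, and 335 and 335 after SB431542. The inhibitor arrays were thus far above the other 4, which kept within a narrow range. The difference from control was 2.03 on the log2 scale (SE 0.12, 95% interval 1.72 to 2.34), 4.09-fold, and it passed (limma adjusted p = 0.0457, and 5.52e-09 with the intensity trend).

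The other Ascl2 probe sets gave larger folds from lower controls. Probe set 1422396_s_at read 67 and 43 in control, 28 and 40 after activin, and 273 and 276 after SB431542, 5.11-fold (log2 2.35, SE 0.27, limma adjusted p = 0.132). Probe set 1432018_at read 29 and 26 in control, 19 and 30 after activin, and 206 and 217 after SB431542, 7.70-fold (log2 2.94, SE 0.23, limma adjusted p = 0.0978). Its control and activin readings lie among the bacterial controls, so its fold is limited by background. Both rose with the intensity trend (adjusted p = 1.28e-07 and 4.29e-08), and all 3 Ascl2 probe sets kept the inhibitor arrays clear of the rest. When the 3 were averaged into 1 value, Ascl2 was at 2.44 (SE 0.19, limma adjusted p = 0.0479 over genes).

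Gata2 and Gata3 are zinc finger factors that bind the same core sequence and act side by side in trophectoderm and trophoblast giant cells. Gata2 probe set 1450333_a_at read 260 and 243 in control, 242 and 240 after activin, and 466 and 507 after SB431542, 1.93-fold (log2 0.95, SE 0.12, 95% interval 0.64 to 1.26). Probe set 1428816_a_at read 77 and 61 in control, 67 and 102 after activin, and 473 and 463 after SB431542, 6.83-fold (log2 2.77, SE 0.24, 95% interval 2.18 to 3.37). The pair agreed in direction but not in size, since their intervals do not meet. Neither passed by default (limma adjusted p = 0.144 and 0.103), and both rose with the intensity trend (adjusted p = 1.07e-05 and 4.94e-12). Averaged into 1 value, Gata2 was at 1.86 (SE 0.15), which did pass (limma adjusted p = 0.0479 over genes).

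Gata3 was the least settled of the rising factors. It read 54 and 30 in control, 43 and 30 after activin, and 102 and 95 after SB431542, 2.45-fold (log2 1.29, SE 0.32, 95% interval 0.49 to 2.10). Both inhibitor readings were above the other 4, but the control pair stood far apart, and the lower control reading lay among the bacterial controls. It missed the default threshold (limma adjusted p = 0.255) and rose with the intensity trend (adjusted p = 0.014), a call that ended without control replicate 2 or without either SB431542 array. The control array with the higher Gata3 reading also had the higher median intensity, 46 against 37. With columns shifted to 1 median the difference was 1.26.

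The promoters of Ascl2, Gata2 and Gata3, whose largest probe set differences after the inhibitor lead the matched genes, are shown here beside that of Cdx2, which was not higher, because the medium holds BMP4 and GGCGCC is the palindrome found in BMP response elements bound by Smad1 and Smad5. RefSeq promoter entries, 250 bases before to 50 bases after a start site on GRCm38.p6, were matched for 6 of the 9 genes, with 8 start sites. Hand1, Tfap2c and Tead4 were not matched. Sequences run 5′ to 3′ on the strand of the gene, with each GGCGCC in capitals.
Ascl2, chr7:142969215-142969514, minus strand: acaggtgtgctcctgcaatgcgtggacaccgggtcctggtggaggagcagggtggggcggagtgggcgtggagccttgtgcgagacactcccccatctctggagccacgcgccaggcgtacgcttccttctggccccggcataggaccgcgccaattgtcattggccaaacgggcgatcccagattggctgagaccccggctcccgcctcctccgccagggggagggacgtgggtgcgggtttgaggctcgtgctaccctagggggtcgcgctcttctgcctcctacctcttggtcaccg
Gata2, upstream start, chr6:88193641-88193940, plus strand: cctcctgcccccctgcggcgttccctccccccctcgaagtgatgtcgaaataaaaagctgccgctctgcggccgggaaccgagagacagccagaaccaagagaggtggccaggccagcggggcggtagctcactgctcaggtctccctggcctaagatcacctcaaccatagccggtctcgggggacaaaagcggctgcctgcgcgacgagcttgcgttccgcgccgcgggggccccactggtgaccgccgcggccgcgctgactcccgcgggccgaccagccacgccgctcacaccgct
Gata2, downstream start, chr6:88198414-88198713, plus strand: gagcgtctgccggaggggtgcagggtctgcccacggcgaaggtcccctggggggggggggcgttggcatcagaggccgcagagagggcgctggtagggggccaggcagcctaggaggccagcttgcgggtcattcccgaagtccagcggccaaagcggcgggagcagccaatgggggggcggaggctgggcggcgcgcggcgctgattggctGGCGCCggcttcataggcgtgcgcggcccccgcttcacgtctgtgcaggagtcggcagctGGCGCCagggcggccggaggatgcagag
Gata3, chr2:9878551-9878850, minus strand: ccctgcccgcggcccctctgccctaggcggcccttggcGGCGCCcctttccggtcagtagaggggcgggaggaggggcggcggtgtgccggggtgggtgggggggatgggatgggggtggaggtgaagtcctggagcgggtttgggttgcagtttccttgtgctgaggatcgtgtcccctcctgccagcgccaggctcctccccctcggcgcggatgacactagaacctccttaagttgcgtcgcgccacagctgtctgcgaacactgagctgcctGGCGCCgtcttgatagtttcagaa
Cdx2, chr5:147307200-147307499, minus strand: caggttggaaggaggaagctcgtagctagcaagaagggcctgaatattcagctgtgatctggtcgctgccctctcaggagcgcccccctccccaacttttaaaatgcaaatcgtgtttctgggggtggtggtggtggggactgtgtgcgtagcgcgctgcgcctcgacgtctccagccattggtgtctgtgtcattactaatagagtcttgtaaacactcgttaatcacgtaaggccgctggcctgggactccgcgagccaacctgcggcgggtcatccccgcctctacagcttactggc
GGCGCC occurs at 2 places in the downstream Gata2 promoter, with first bases at −38 and 23 from the start, and at 2 places in that of Gata3, at −212 and 27. The other 6 start sites, those of Ascl2, Esx1, Cdx2 and Elf5 and the upstream start of Gata2, have none. Of all 32851 promoters of this length 11.87% hold it, and of the 6011 with at least 65% G or C, 37.35% do. The downstream Gata2 window has 73.7% G or C and that of Gata3 67.3%, and so do the Ascl2 window at 67.0% and the upstream Gata2 window at 69.3%, without a match. The Smad palindrome GTCTAGAC, in 0.21% of all promoters, and TATAAA, in 13.62%, are in none of the 8, searched on both strands. CCAAT, in 37.41% of promoters on either strand, occurs at 3 places in the Ascl2 window, at 2 in the downstream Gata2 window and at 1 in that of Cdx2. A match is a description of the letters and not a measured site.

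Hand1 is a basic helix-loop-helix factor that drives trophoblast giant cell formation and is also expressed in extraembryonic and lateral mesoderm. Probe set 1417525_at read 192 and 212 in control, 261 and 201 after activin, and 444 and 418 after SB431542, 2.14-fold (log2 1.09, SE 0.17). Probe set 1448750_at read 130 and 139, then 172 and 156, then 290 and 260, 2.04-fold (log2 1.03, SE 0.13). Both kept the inhibitor arrays above all the others and gave like sizes. Neither passed by default (limma adjusted p = 0.178 and 0.144), and both rose with the intensity trend (adjusted p = 4.33e-06 and 8.09e-05).

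Esx1, an X-linked homeobox gene of the labyrinth layer of the placenta, read 252 and 247 in control, 206 and 218 after activin, and 631 and 503 after SB431542. The inhibitor arrays were 2.26-fold above control (log2 1.18, SE 0.15, limma adjusted p = 0.144) and rose with the intensity trend (adjusted p = 4.18e-07). Both activin readings lay below both controls.

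Tfap2c (AP-2 gamma) maintains trophoblast and is also present in ES cells and primordial germ cells. Its 3 probe sets gave nearly the same change from well-measured levels. Probe set 1436392_s_at read 1303 and 1490 in control, 1268 and 1449 after activin, and 2556 and 2274 after SB431542, 1.73-fold (log2 0.79, SE 0.15, limma adjusted p = 0.203). The others were 1.63-fold (1448977_at, from 712 and 817 to 1236 and 1254, limma adjusted p = 0.198) and 1.70-fold (1418147_at, from 464 and 463 to 824 and 753, limma adjusted p = 0.182). All 3 rose with the intensity trend (adjusted p = 5.01e-07, 1.70e-05 and 3.15e-05), and on none did an inhibitor reading overlap with a control or activin reading.

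Tead4, a TEA domain factor that binds DNA for the Hippo pathway, read 74 and 72 in control, 76 and 75 after activin, and 112 and 84 after SB431542 on probe set 1460683_at. The difference of 0.41 on the log2 scale had a 95% interval from −0.01 to 0.83. Probe set 1426337_a_at read 65 and 49, then 60 and 76, then 81 and 99, a difference of 0.67 with an interval from 0.13 to 1.20. Inhibitor readings were above both controls on each probe set, yet neither passed by default (limma adjusted p = 0.395 and 0.325) or with the intensity trend (adjusted p = 0.457 and 0.198).

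Cdx2, a caudal-type homeobox factor, is the classical specifier of trophectoderm and is later used in posterior tissues. Its brighter probe set 1422075_at read 219 and 186 in control, 151 and 264 after activin, and 207 and 170 after SB431542. The groups overlapped, and the inhibitor difference was −0.11 on the log2 scale with a 95% interval from −0.83 to 0.62 (limma adjusted p = 0.901). That interval allows a rise of up to 1.54-fold, just short of the smallest difference among the 6 higher genes, 1.63-fold, whose own interval begins at 0.38 on the log2 scale. Probe set 1422074_at read 66 and 44, then 36 and 49, then 50 and 36, a difference of −0.35 with an interval from −1.06 to 0.37. The wide gap between the activin arrays on 1422075_at went with array medians of 38 and 49, whose part in the result was not tested.

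Elf5, an Ets factor that locks in trophoblast fate and whose promoter is methylated in ES cells, was at background. Probe set 1419556_at read 18 and 21 in control, 18 and 18 after activin, and 16 and 13 after SB431542, and 1419555_at read 20 and 18, 14 and 19, and 14 and 14. Every reading lay within the range of the bacterial controls. The inhibitor readings were below both controls on each probe set, as on 22.1% of all probe sets, with log2 differences of −0.43 and −0.44, and neither passed (limma adjusted p = 0.363 and 0.394, and 0.453 and 0.415 with the intensity trend). At this level a fall cannot be read as a loss of transcript.

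**Figure D2:**
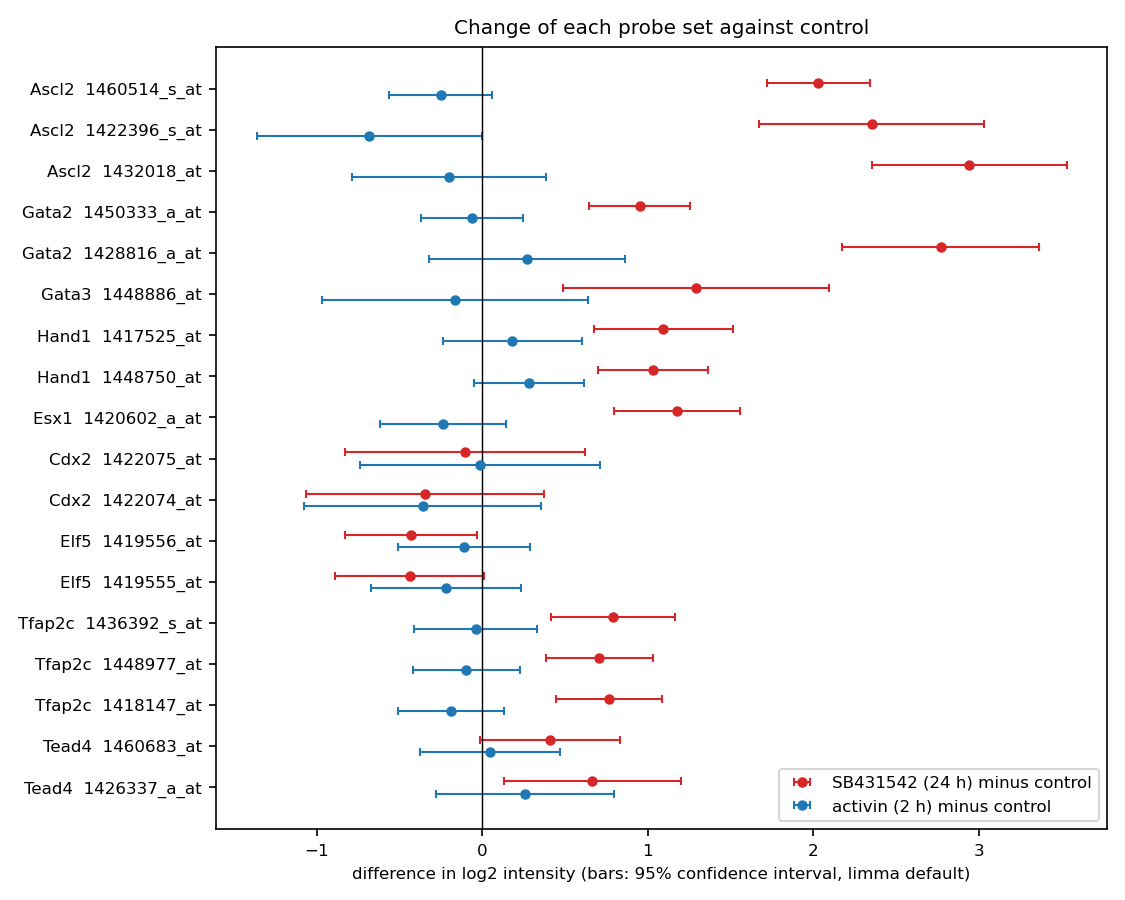
Difference in log2 intensity from control for each of the 18 probe sets, red for SB431542 at 24 h and blue for activin at 2 h, with bars for the 95% confidence interval of the default limma fit. Red intervals exclude 0 for all probe sets of Ascl2, Gata2, Gata3, Hand1, Esx1 and Tfap2c and include it for Cdx2. Red intervals also exclude 0 for Tead4 1426337_a_at, 0.13 to 1.20, and, downward and at background, for Elf5 1419556_at, −0.83 to −0.03. All blue points lie between −0.68 and 0.29.

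Activin for 2 h brought no call among the factors. Of the 18 probe sets 0 passed by default or with the intensity trend, where 0.195% of all probe sets were higher and 0.0200% lower with the trend and 0.00% by default. A single probe set, 1422396_s_at of Ascl2, had an unadjusted p under 0.05, at −0.68 (SE 0.27, limma adjusted p = 0.805). The median log2 difference was −0.10, and the range ran from −0.68 to 0.29. Activin readings lay wholly below control on 5 probe sets and wholly above on 2, against 14.5% and 14.7% of all probe sets. The 3 Ascl2 probe sets were at −0.25, −0.68 and −0.20, and Esx1 was at −0.24 with an interval from −0.62 to 0.15. The Hand1 probe sets were at 0.18 and 0.29. The 95% intervals of Ascl2 reach down to −0.56 on the log2 scale for its brightest probe set, −0.79 for 1432018_at and −1.36 for 1422396_s_at. With 2 arrays a group, falls of that size were not excluded and a small response was not detectable. Both comparisons use the same control arrays, and the treatments differ in duration.

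Activin was then set directly against SB431542, in the fit to all 6 arrays, whose control arrays enter the variance. Ascl2 was 4.86-fold lower after activin on 1460514_s_at, a log2 difference of −2.28 (SE 0.12, limma adjusted p = 0.0252), and no other of the 18 passed by default (0.00222% of all probe sets were called lower). With only the activin and SB431542 arrays fitted, 0 of the 18 and 0 of all 45037 probe sets passed. With the intensity trend 12 were lower and 0 higher, against 1.47% and 0.802% of all probe sets, where the default called 0.0178% higher. They were the same 12 probe sets of 6 genes that rose against control, a comparison with which this one shares the SB431542 arrays. Gata2 was at −1.01 and −2.50, Esx1 at −1.41, Gata3 at −1.45, Hand1 at −0.91 and −0.75, and Tfap2c between −0.80 and −0.95. Gata3 and a Hand1 probe set lost the call without activin replicate 2 or without either SB431542 array. Cdx2 was at 0.09 and −0.01, with intervals reaching from −0.73 to 0.82.

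Paralogues of the 9 genes, which bind like sequences but mostly serve other tissues, were read on the same arrays. Of 18 listed, 17 had a probe set under the listed symbol. Of these, 1 rose with the intensity trend and 0 by default, against 4.25% of genes and 0.00550%. In so short a list that count is near the share over all genes. Their median log2 difference after SB431542 was 0.08, while that of all genes was −0.00. On all arrays 6 of the 17 did not exceed the bacterial controls, so a change in them could hardly be seen. The riser was Tfap2a (AP-2 alpha), used in trophoblast, surface ectoderm and neural crest, which read 152 and 184 in control, 114 and 138 after activin, and 320 and 363 after SB431542 (log2 1.03, SE 0.17, limma adjusted p = 0.182, and 9.53e-05 with the intensity trend). Its other probe sets were at 1.06 and 1.30. Thus 2 of the 5 AP-2 genes stood higher, while Tfap2b, Tfap2d and Tfap2e stayed within the range of the bacterial controls on all arrays.

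Among the other Gata genes, Gata1 was at 0.12, Gata4 at 0.03, Gata6 at −0.24 and Gata5 at 0.39 within background, and none passed. Gata4 and Gata6 mark primitive endoderm, and Gata1 marks red blood cell precursors. Hand2, which acts in heart and limb, was at 0.55 and Ascl3 at 0.08, both from dim readings. Of the Cdx genes, Cdx1 was at −0.75 (SE 0.17, limma adjusted p = 0.243, and 0.214 with the intensity trend), reading 61 and 56 in control against 38 and 32, and Cdx4 was at −0.21 within background. Elf3 was at 0.23, and Ehf was at 0.36 within background. Tead1, Tead2 and Tead3 were at 0.11, −0.05 and 0.03, with 95% intervals inside −0.34 to 0.46.

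**Figure D3:**
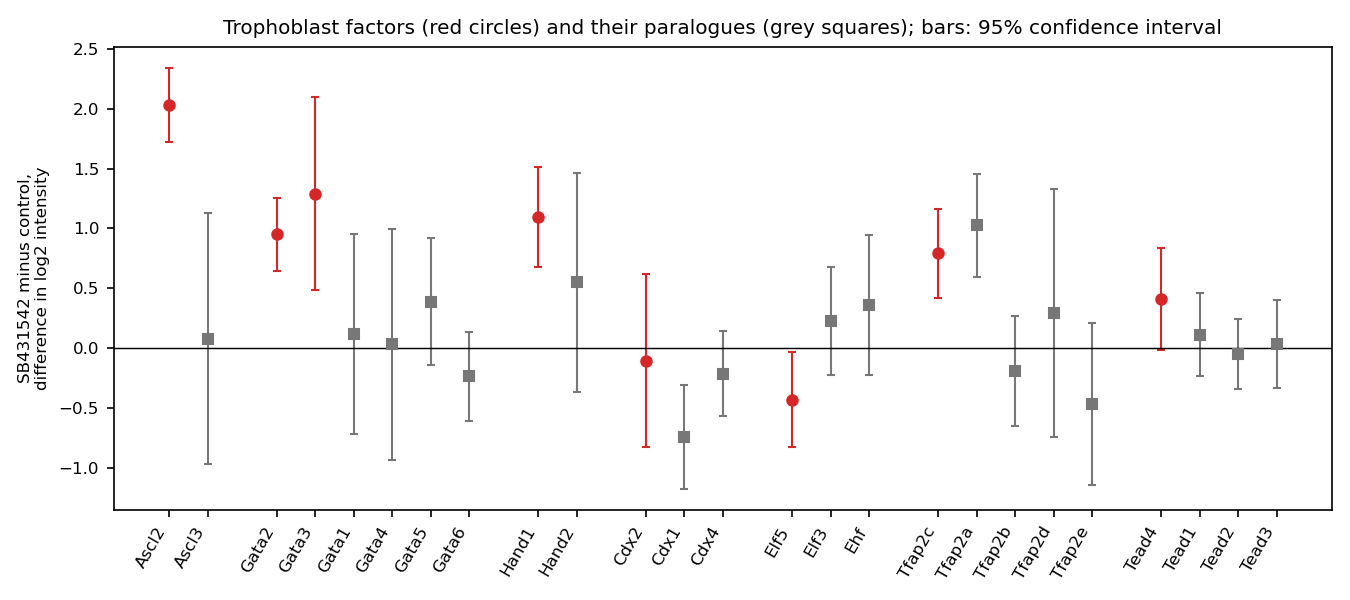
Difference in log2 intensity between SB431542 and control for the factors other than Esx1 (red circles) and 17 paralogues (grey squares), grouped by family. Each point is the brightest probe set of a gene, with its 95% confidence interval from the default limma fit. Esx1, of the 9 factors, is not drawn. Tfap2a, at 1.03, is the grey square that stands with the higher red circles, and Cdx1, at −0.75, is the lowest point.

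Partners of Tead4 in the Hippo pathway were measured for all 8 genes of a list of co-activators, kinases and scaffolds. Amotl2, an angiomotin that binds Yap1 at junctions and is itself a known Yap1 target, read 1164 and 1046 in control, 1337 and 1068 after activin, and 2219 and 2223 after SB431542. It rose with the intensity trend (log2 1.01, SE 0.16, adjusted p = 8.36e-09) and did not pass by default (limma adjusted p = 0.180). It was 1 of the 8 to do so by its brightest probe set, and 0 fell, against 4.25% and 2.23% of genes. Yap1 was at −0.02 and its relative Wwtr1 (Taz) at 0.32. The median of the 8 was 0.05.

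Of 24 other trophoblast regulators listed, 21 had a probe set under the listed symbol. Of these, 8 rose and 1 fell with the intensity trend, against 4.25% and 2.23% of genes. By default 0 rose and 1 fell, against 0.00550% and 0.0220%. Their median difference was 0.30. Id2, which binds basic helix-loop-helix factors and keeps them off DNA and is itself a BMP target, was at 1.60 (SE 0.13, limma adjusted p = 0.0978), reading 1153 and 1172 in control against 3502 and 3551. Rhox6 and Rhox9, homeobox genes of the X-linked reproductive cluster, were at 1.16 and 0.80, and Msx2, a homeobox target of BMP, at 0.88. The intensity trend called these 4 higher (adjusted p = 2.76e-15, 1.43e-06, 0.00317 and 1.18e-05). A dim second Msx2 probe set went the other way, from 39 and 35 to 16 and 18.

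The gene that fell was Eomes, the T-box factor that trophoblast stem cells share with mesendoderm and a known target of Nodal signalling. It read 229 and 239 in control, 259 and 297 after activin, and 50 and 44 after SB431542 (log2 −2.32, SE 0.14, limma adjusted p = 0.0457). After activin it was not called higher (log2 0.25, limma adjusted p = 0.842).

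Keratins, surface proteins and placental products of trophoblast were followed as a list of 25 genes, of which 20 had a probe set under the listed symbol. With the intensity trend 9 rose and 0 fell, against 4.25% and 2.23% of genes, and by default 0 passed. The median difference was 0.33. Phlda2, an imprinted brake on placental growth, was at 1.46 (SE 0.16, limma adjusted p = 0.127), reading 1682 and 1357 in control against 3950 and 4355. Peg10, a retrotransposon-derived imprinted gene needed in placenta, was at 1.21, and Krt18, a keratin of simple epithelia, at 0.46. Fgfr2, at 0.88, stands in the list as a surface protein. It is the receptor through which FGF4 maintains trophoblast stem cells, so it is not specific to differentiated cells. The intensity trend called these 4 higher (adjusted p = 6.48e-13 for Phlda2, 3.74e-04 for Peg10, 1.41e-04 for Krt18 and 2.62e-04 for Fgfr2).

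Placental genes of the list lay at very different levels. Plac1, a placenta-enriched X-linked gene, read 181 and 147 in control against 259 and 298, and rose with the intensity trend (log2 0.77, adjusted p = 0.00433), and so did Wnt7b, a ligand needed for fusion of the allantois and chorion (log2 0.80, adjusted p = 0.00126). By contrast 3 of the 20, Tpbpa, Ctsq and Enpep, stayed within the range of the bacterial controls on all arrays. Tpbpa, which defines spongiotrophoblast, read between 13 and 19 on its brightest probe set, and Ctsq, a cathepsin of labyrinth giant cells, between 16 and 25. Plac1, Wnt7b, Tpbpa, Ctsq, Enpep, Yap1, Wwtr1 and Krt5 were picked as examples after their values were seen. The prolactin family genes and syncytins of the list were not analysed here.

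**Figure D4:**
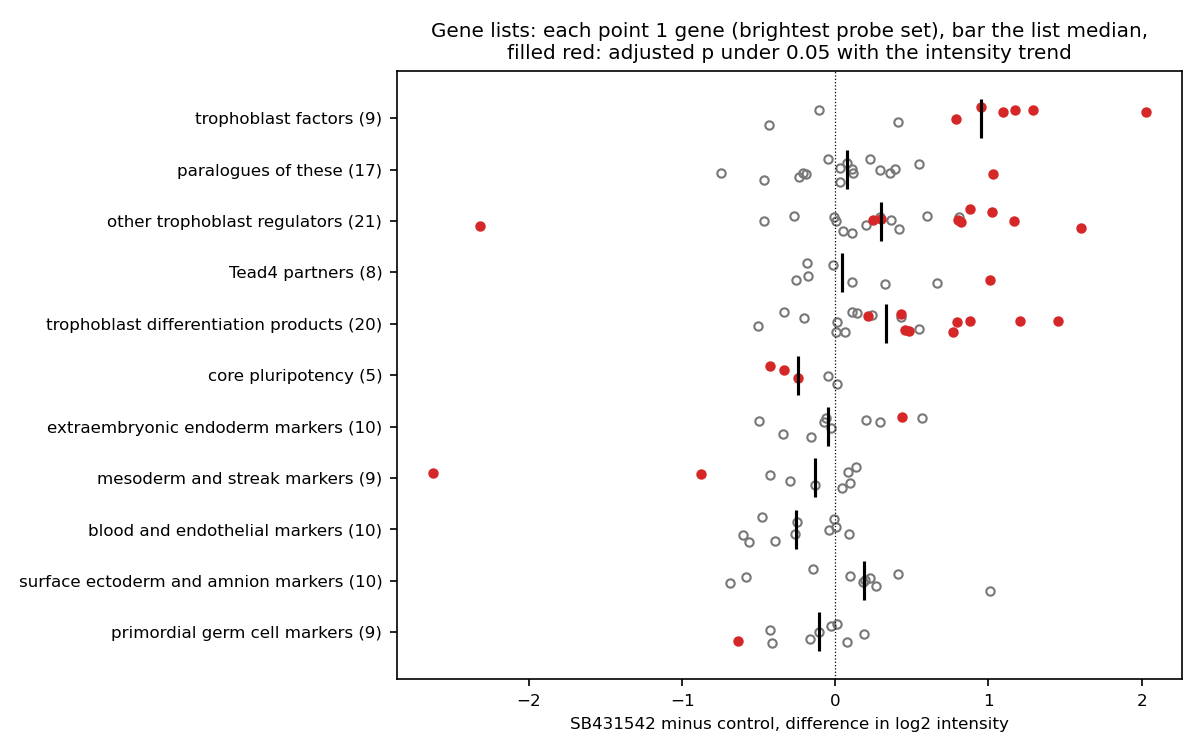
Difference in log2 intensity between SB431542 and control for each gene of the 9 factors and of 10 other lists, 1 point per gene by its brightest probe set, with a bar at the list median and red fill where the adjusted p with the intensity trend is under 0.05. The medians are 0.95 for the trophoblast factors, 0.33 for the list of keratins, surface proteins and placental products (labelled differentiation products) and 0.30 for other regulators, and those of the remaining lists lie between −0.26 and 0.19.

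Several of these factors also serve other lineages, so markers of those lineages were read on the same arrays. With the intensity trend, 0 of 9 mesoderm and streak markers rose and 2 fell, where 4.25% of all genes rose and 2.23% fell. Those that fell were Mixl1 at −2.63 and Evx1 at −0.87, both factors of the primitive streak. A count of 0 rising in so short a list is near the share over all genes. The streak gene T (Brachyury), also on the list, had no probe set under that symbol in the annotation and was not read here. Summed over the 9 genes, log2 levels ran from 56.8 to 59.0 in control and from 53.4 to 54.4 after SB431542. Of 10 blood and endothelial markers 0 changed against the same shares, with sums of 54.3 to 55.9 against 51.6 to 53.5, and Tal1, Hba-x and Cdh5 lay within the bacterial range on all arrays. By default 0 genes of either list passed.

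Of 10 surface ectoderm and amnion markers 0 changed by either test, with sums of 72.0 to 73.4 in control and 73.2 to 74.2 after SB431542, and Trp63 stayed within the bacterial range. Krt5 was the highest of them, at 1.01 (SE 0.29, limma adjusted p = 0.294, and 0.083 with the intensity trend). Of 10 extraembryonic endoderm markers 1 rose with the intensity trend, Col4a1, a basement membrane collagen, at 0.44, with sums of 59.3 to 61.6 against 60.8 to 60.8. The other 9 ran from −0.50 for Sox17 to 0.57 for Pdgfra, which read 38 and 39 against 26 and 26 in control and missed the threshold (limma adjusted p = 0.347, and 0.458 with the intensity trend). Sox7, Lama1, Dab2, Foxa2 and Afp were at −0.34, −0.16, −0.08, −0.06 and −0.03, and Ttr and Hnf4a at 0.20 and 0.29. Afp lay within the bacterial range. Of 9 primordial germ cell markers 1 fell with the intensity trend, Dnd1, at −0.63, with sums of 78.4 to 79.2 against 77.1 to 77.5. Nanos3, also on that list, had no probe set under that symbol and was not read here. By default 0 genes of these 3 lists passed. With lists of 9 or 10 genes, counts of 0 or 1 are near the 4.25% and 2.23% of all genes called higher and lower with the intensity trend. The part of these cell types in the results above was not tested.

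The genes whose pattern over the 6 arrays was nearest to that of Ascl2 were found by Euclidean distance between centred log2 values, among the brightest probe sets of 18193 genes. They were AU015836 (distance 0.477, r = 0.987), Id2 (0.625, r = 0.993), 3830417A13Rik (0.714, r = 0.976), Nap1l3 (0.791, r = 0.999) and Phlda2 (0.820, r = 0.990). Nearest to Gata2 were Fabp3 (0.0813, r = 0.998), Afap1 (0.119, r = 0.996), Gramd1c (0.139, r = 0.995), Rhou (0.144, r = 0.995) and Marveld2 (0.150, r = 0.992). All points come from the same 6 arrays in 3 groups, so these values describe likeness and carry no test.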

How the data were processed

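RNA was measured on 6 Affymetrix arrays. The deposited table gives intensity per probe set, linear and in whole numbers. The submitters' processing notes name RMA (background correction, quantile normalization, probe summary), without a version. The design text names the smaller A array, while the 45101 probe sets match the larger one. Column medians differ, although quantile normalization is named. In control and in activin the array with the higher median had the lower maximum, 24026 against 26405 and 23464 against 25136. The sources used here give no further step, and the origin of these differences was not tested.

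Intensities were turned to log2 with no added normalization. After removal of 64 array control rows, 45037 probe sets were tested, of which 34945 carry 1 gene symbol in the platform annotation, 932 several and 9160 none. A gene's brightest probe set, by its mean over arrays, served where genes were counted. In limma 3.58.1 under R 4.3.3, a mean for each group was fitted to all 6 arrays, and Benjamini-Hochberg adjustment ran over all probe sets, with a threshold of 0.05. The arrays left 3 degrees of freedom, to which the prior brought 2.51 by default and 34.3 with the intensity trend. The fit was tested on simulated data.

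Groups came from sample titles. A title and the condition label spell the compound SB432542, and the treatment protocol SB431542. Every probe set of the 9 genes is given. Of each other list, the called genes with the smallest trend p, at most 4 a direction, are named, and paralogues beside their factor. Genes beyond this rule are named too. They are every extraembryonic endoderm marker, some genes within the bacterial range, and examples picked after their values were seen. The genes and lists were chosen with earlier results of these data known. Alternatives were the variance model, scaling, a filter on dim probe sets, the replicate block, fits of 2 groups and leaving out arrays. Promoter sequences are from RefSeq.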

Additional observations from a re-analysis of the deposited data

How the results depend on the processing

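Counts past the threshold moved with the variance model and the arrays, over all probe sets as for the trophoblast factors. In SB431542 against control, 1 of 18 by default became 12 with the intensity trend, 9 with columns shifted to 1 median, 4 with repeated quantile normalization, 2 with the dimmest 40% left out, and 0 when only the 2 groups compared were fitted. Over all probe sets tested, the default and these settings in turn called 7, 2242, 791, 40, 21 and 0. In activin against SB431542 the same settings gave 12, 9, 4, 2 and 0, from 1, and over all probe sets 1024, 412, 49, 30 and 0, from 9. Without 1 array the default count was 0 each time in both (range 0 to 0), as over all probe sets, and with the intensity trend it was 11 to 12 and 10 to 12. In activin against control it was 0 under every setting run. Leaving out arrays under the intensity trend, and crossed numbers, were chosen after seeing the data. The default test on fewer arrays has fewer degrees of freedom.

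The replicate block, by the numbers in the titles, gave 0 calls among the 18 in all 3 comparisons, and 0 with the activin numbers crossed. In SB431542 against control, 0 of all probe sets tested passed with the block and 2 with crossed numbers. Deviations of arrays with the same number correlated at −0.14, 0.02 and −0.09. Array medians also differed, so these values cannot show whether arrays with the same number share a culture or a batch.

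Apart from Cdx2, no difference between SB431542 and control changed sign under any setting run. Cdx2 1422075_at ran from −0.25 to 0.037 without 1 array. Against activin the Cdx2 probe sets ran from −0.25 to 0.22 and from −0.31 to 0.49. In activin against control, values without 1 array ran from −0.53 to 0.13 for Ascl2 1432018_at, −0.033 to 0.57 for Gata2 1428816_a_at, −0.59 to 0.26 for Gata3, −0.0054 to 0.37 for Hand1 1417525_at, −0.42 to 0.39 for Cdx2 1422075_at, −0.44 to 0.0020 for Elf5 1419555_at, −0.14 to 0.057 for Tfap2c 1436392_s_at and −0.20 to 0.0017 for Tfap2c 1448977_at. Tead4 1460683_at, at 0.05, was at −0.016 with columns shifted and −0.021 with quantiles repeated. With 2 arrays a group, small changes could not be told from array spread.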

Other observations

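Ascl2 lies among imprinted genes, and the protein-coding genes next to it in RefSeq order, 12 on each side, were read after its own values had been seen. Of the 23 with a named probe set, 0 passed by default, and 3 were higher and 1 lower with the intensity trend, against 4.25% and 2.23% of all genes with the trend and 0.00550% and 0.0220% by default. Their median log2 difference after SB431542 was 0.03. The higher ones were Phlda2, at 1.46, Igf2, a growth factor expressed from the paternal allele, at 0.70 (SE 0.15, limma adjusted p = 0.232, and 4.73e-07 with the intensity trend), and Tnnt3, a muscle troponin, at 1.48 from dim readings. Igf2 read 4646 and 4159 in control, 4229 and 3419 after activin, and 7255 and 7065 after SB431542. Trpm5 was lower, at −1.24 (limma adjusted p = 0.252). Of the 7 genes between Ascl2 and Phlda2 none was called higher. Cd81 was at −0.17, Tssc4 at 0.03, Kcnq1 at −0.15 and Cdkn1c, a maternally expressed cell cycle inhibitor, at 0.11, and the nearest neighbour on the other side, Th, was at −0.42 within background.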
